A study of Homo sapiens with 6 samples.

Results

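A set of 8 well-known long noncoding RNAs, namely NEAT1, MALAT1, MIAT, TUG1, GAS5, KCNQ1OT1, H19 and MEG3, was followed in human SH-SY5Y neuroblastoma cells with a stable knockdown of the RNA-binding protein TDP-43. They were chosen by name from the expression table, and all 8 were found among its 26372 genes. The table held 2201 genes that GENCODE release 29 annotates as long noncoding RNAs, the 8 among them. Poly(A)-selected RNA was sequenced in 6 libraries. In 3 libraries the cells carried a lentiviral U6 vector with an shRNA against TDP-43 (shTDP-43, titled shT2), and the knockdown cells were selected and kept in puromycin. In the other 3 libraries the cells carried the control shRNA (shNC, titled shNC3) from the same vector. Both groups are the same SH-SY5Y line with an integrated virus, and for each group a single shRNA construct is named in the titles. Nothing in the labels says that a group holds independent cultures, or whether a line is a clone. The p-values therefore rest on differences among these 6 libraries, and that spread may be technical.

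A long noncoding RNA acts as a transcript rather than through a protein. Some of those studied here hold nuclear bodies together: NEAT1 is the scaffold of paraspeckles, and MALAT1 gathers at nuclear speckles, where splicing factors are stored. Others come from imprinted loci, where a gene is expressed from the copy of only one parent and noncoding RNAs such as KCNQ1OT1, H19 and MEG3 accompany the silencing of neighbouring genes. GAS5 is a host gene, whose introns carry small nucleolar RNAs. TDP-43, the product of TARDBP, binds RNA at repeats of UG (TG in DNA letters) and is itself found in paraspeckles.

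The 5 transcripts that could be tested moved in different directions. GAS5, KCNQ1OT1 and MIAT were higher in the knockdown, by 2.09-fold, 1.97-fold and 3.85-fold in mean FPKM (fragments per kilobase of transcript, scaled to library size, a level per length). NEAT1 was lower, at 0.672 of the control level. TUG1 was not called. MALAT1 and H19 were listed at 0 in all 6 libraries and MEG3 was at or near 0, so these 3 were not tested. Calls came from limma, fitted on log2(FPKM + 1) over the 13434 genes that averaged at least 1 FPKM, and needed an adjusted p (Benjamini-Hochberg) under 0.05. Of the 5 tested members, 3 were called higher and 1 lower. The whole comparison was broad: 66.3% of all tested genes were called, 30.5% higher and 35.9% lower. Among the 534 tested genes annotated as long noncoding RNAs, 60.5% were called, 45.9% higher and 14.6% lower. The 2 groups of libraries did not overlap for the 4 called members, for 70.8% of all tested genes and for 61.6% of the tested long noncoding RNAs. A call by itself therefore sets no member apart, and the sizes are read beside these shares: 11.3% of all tested genes, and 11% of the tested long noncoding RNAs, were called and changed at least 2-fold on the log2(FPKM + 1) scale, where GAS5 and MIAT passed that size and KCNQ1OT1 and NEAT1 did not.

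**Figure D1:**
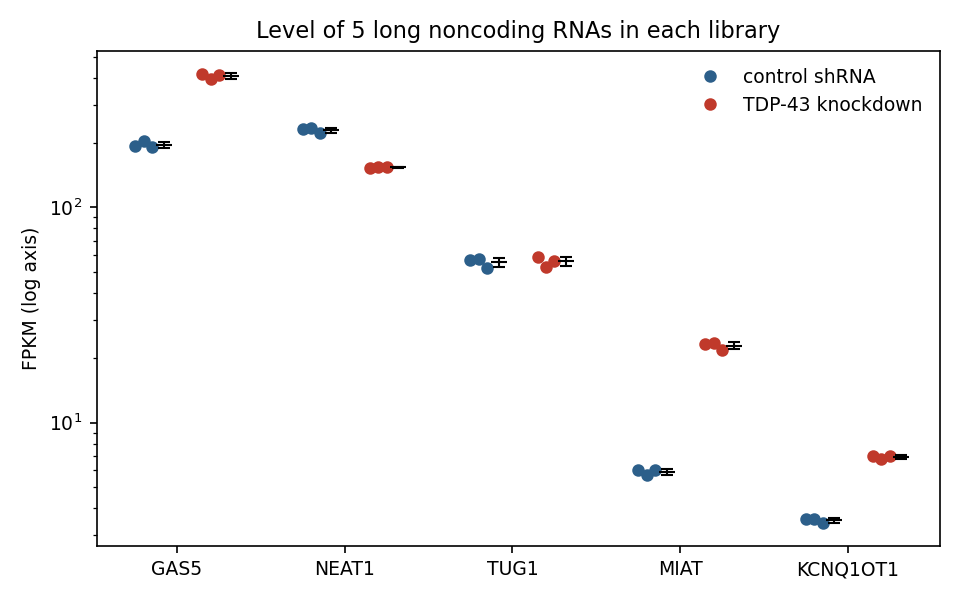
Level of the 5 tested long noncoding RNAs in each library, in FPKM on a log axis, with control libraries in blue, knockdown libraries in red, and the mean with SD in black (n = 3 each). The groups do not overlap for GAS5, NEAT1, MIAT and KCNQ1OT1, and they overlap for TUG1.

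Facts of the whole set bear on every value. TARDBP was at 21.2 ± 0.598 FPKM with its shRNA and at 49.5 ± 1.49 FPKM with the control shRNA (SD, n = 3 each), 42.8% of control, with an adjusted p of 6.69e-08 in limma. Depth estimated from low values was 69.9%, 52.5% and 94.7% of the deepest library in the knockdown and 100%, 95.9% and 84.6% in the control. For the lowest estimate, 98 of 1363 genes with low values shared the ratio on which it rests. Marker genes moved as well. Of 45 tested mesenchymal (substrate-adherent) markers 40 were called lower and 4 higher, with a median log2 fold change of -2.09 and summed levels of 1645 to 1665 FPKM in the knockdown against 8102 to 8133 in the control. Of 33 tested noradrenergic (neuroblast) markers 24 were called higher and 7 lower, with a median of 0.72 and sums of 1935 to 2035 against 1974 to 2024 FPKM, and with columns rescaled to equal sums 13 were higher and 17 lower with a median of -0.18. Among their defining markers, TH, the first enzyme of noradrenaline synthesis, was listed at 0 in all libraries. Of 12 Schwann cell and glial markers 8 were under the limit for testing, and 2 of these were listed at 0 throughout. Sums over all 12 were 53.6 to 54.2 against 46.0 to 48.7 FPKM. Of the 4 tested 3 were called higher and 1 lower, with a median of 0.99, which says nothing of the 8 not tested. After that rescaling this median was 0.32, and with a minimum mean of 5 FPKM it was 0.47 with 1 called higher. Of 14 ubiquitous reference genes 11 were called lower and 2 higher, with a median of -0.52 and sums of 4543 to 4609 against 7920 to 8143 FPKM. The part of these shifts in the members' results was not tested. In bulk RNA, fewer cells of a type and less RNA per cell cannot be told apart.

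The scale of the columns limits directions. The columns summed to 1.18e+06 to 1.23e+06 FPKM in the control and 2.12e+06 to 2.45e+06 in the knockdown, with SNORD3A, the U3 small nucleolar RNA, listed at 0 in all control libraries and at 1.20e+06 to 1.53e+06 FPKM in the knockdown. RN7SK was listed at 0 in the knockdown and at 217308 FPKM or more in the control, so an exact 0 here can be a failed estimate. Rescaling the columns to equal sums, which lets these small RNAs set the scale, moved the median log2 fold change of all tested genes from -0.020 to -0.82, and quantile normalization moved it to 0.091. The split of all calls was 4092 higher and 4817 lower as deposited, 522 and 11689 at equal sums and 5390 and 3769 after quantile normalization. For the long noncoding RNAs it was 245 higher and 78 lower, 44 and 315 at equal sums and 276 and 71 after quantile normalization. Rescaling to equal sums multiplies all genes of a library by the same factor, and quantile normalization keeps the order of genes within a library. That the members kept their order relative to the median of all tested genes is therefore no independent check. MIAT lay 1.80, 1.77 and 1.81 log2 units above that median as deposited, at equal sums and after quantile normalization. GAS5 lay 1.08, 0.97 and 1.10 above it, KCNQ1OT1 0.83, 0.88 and 0.77 above, and NEAT1 0.55, 0.65 and 0.41 below.

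**Figure D2:**
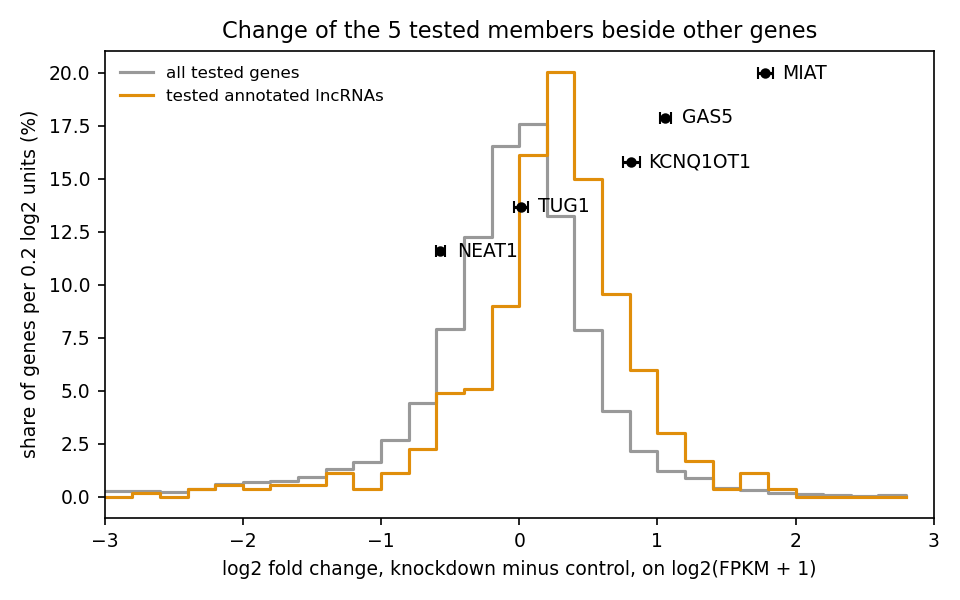
Log2 fold change (knockdown minus control, on log2(FPKM + 1)) of the 5 tested members, as black points with SE bars at arbitrary heights, over the distribution of all tested genes (grey) and of the tested annotated long noncoding RNAs (orange), as a share of genes per 0.2 log2 units. MIAT at 1.78 lies in the sparse upper tail, TUG1 at 0.01 near the centre and NEAT1 at -0.57 on the lower flank.

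NEAT1 was lower in every knockdown library. NEAT1 lies at chr11:65422774-65445540 on the plus strand of GRCh38 (ENSG00000245532.8) and gives a short polyadenylated transcript and a long one from a shared start. Only the long form builds paraspeckles, and its 3′ end is made by RNase P instead of by polyadenylation. Its level was 152.6, 153.3 and 154.7 FPKM in the knockdown and 230.9, 232.9 and 221.9 FPKM in the control. The knockdown libraries lay close together, and the lowest control library stood well above them. The log2 fold change was -0.57 (SE 0.035, limma adjusted p = 1.24e-06), and an exact two-sided permutation test of 3 against 3 libraries gave p = 0.1, the smallest it can give. Among annotated long noncoding RNAs ranked by mean FPKM, NEAT1 moved from place 7 in the control to 12 in the knockdown. The gene-level FPKM joins both forms, and poly(A) selection does not target the end of the long one, so the level of each form was not measured here.

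The sequence of NEAT1 carries the repeat that TDP-43 is known to bind. In the long annotated transcript (NEAT1-202, 22743 bases) the hexamer TGTGTG, searched on the transcript strand with overlapping matches counted, occurred 76 times, or 3.34 per kb. The same count on the longest transcript of 12626 tested genes gave a median of 0.401 per kb, and 98.3% of those genes had a lower density than NEAT1. At least 1 TGTGTG was present in 71.9% of them. The longest unbroken alternation of T and G was 59 bases in NEAT1-202, against a median of 6. A run as long was held by 4 of the 12626 genes (0.0317%), NEAT1 among them. These repeats were not spread evenly: 28 of the 76 hexamers began in the kilobase from position 21 kb and 13 in that from 6 kb, while the short forms NEAT1-201 (3441 bases) and NEAT1-203 (3524 bases) held 5 each, or 1.45 and 1.42 per kb. The run is shown because it is the feature in which NEAT1 stood farthest from the other members, and the longest runs of the other 4 tested members are set below it. Those of MEG3 (9 bases), MALAT1 (7) and H19 (6), which were not tested, are not printed. All lines are in the direction of transcription, on GRCh38, with the longest run of alternating T and G in capitals and flanks in lower case. A match is a description of the letters and shows no binding.
NEAT1, chr11:65444244-65444342, plus strand: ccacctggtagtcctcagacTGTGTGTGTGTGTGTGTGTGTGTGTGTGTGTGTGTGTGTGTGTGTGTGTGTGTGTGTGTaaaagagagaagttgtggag
KCNQ1OT1, chr11:2627715-2627768, minus strand: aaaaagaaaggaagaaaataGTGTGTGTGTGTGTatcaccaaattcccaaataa
MIAT, chr22:26672114-26672162, plus strand: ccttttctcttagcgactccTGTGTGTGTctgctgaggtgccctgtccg
TUG1, chr22:30969960-30970007, plus strand: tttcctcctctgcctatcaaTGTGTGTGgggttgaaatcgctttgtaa
GAS5, chr1:173865232-173865277, minus strand: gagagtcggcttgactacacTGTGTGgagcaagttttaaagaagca

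The other members were closer to the typical gene. KCNQ1OT1-201, annotated as a single transcript of 91667 bases, held 49 hexamers (0.535 per kb) and a run of 14, and 4.05% of the genes had a run as long. MEG3-220 held 1.23 hexamers per kb, TUG1-217 1.07, MIAT-218 0.789 and GAS5-210 0.589. MALAT1-202 held 0.459 per kb and H19-203 0.426, both near the median of the tested genes. Of the 5 tested members NEAT1, the densest by its long form, was called lower, and TUG1, the next, was not called. MIAT, GAS5 and KCNQ1OT1, in that order of density, were called higher. Among these 3 the denser had the larger log2 fold change (1.78, 1.06 and 0.81). A relation of density to change was not tested.

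**Figure D3:**
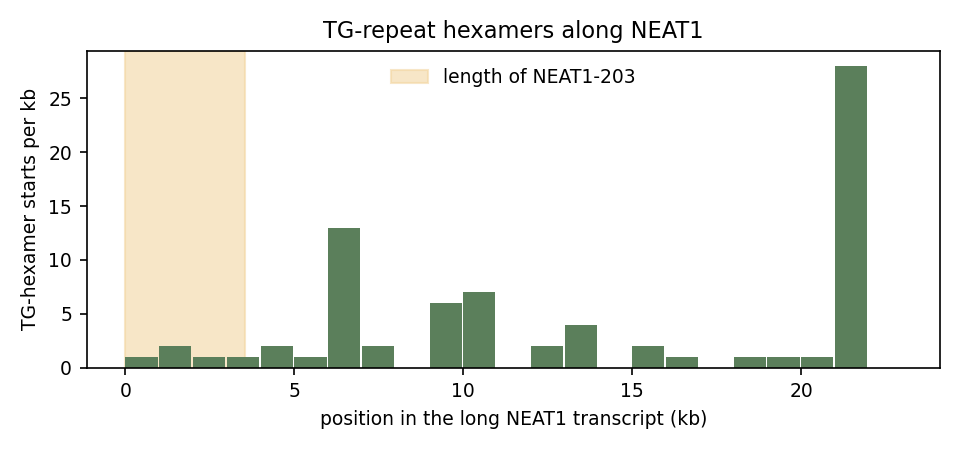
Number of TGTGTG hexamers starting in each kilobase of the long NEAT1 transcript, by position from its start in kb, with the length of the short form NEAT1-203 shaded. The highest bar, 28 hexamers, is in the kilobase from position 21, outside the shaded part.

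The long form of NEAT1 ends in an A-rich tract that is encoded in the genome, where RNase P cuts. It is shown because the long form ends in it in place of a poly(A) tail, with the terminal A-rich stretch in capitals. Whether poly(A) selection captured this end was not tested.
NEAT1 3′ end, chr11:65445450-65445540, plus strand: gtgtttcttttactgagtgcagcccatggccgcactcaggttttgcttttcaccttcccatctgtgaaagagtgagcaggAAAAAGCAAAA

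Genes for paraspeckle proteins, the partners of NEAT1, were more often called higher than lower as deposited. Of 33 tested genes 15 were called higher, 4 lower and 14 neither, beside 30.5% higher and 35.9% lower of all tested genes. In either direction 19 of the 33 were called, beside 66.3% of all tested genes. The median log2 fold change was 0.11 beside -0.020 for all tested genes, and at equal sums 0 of the 33 were called higher and 32 lower. The largest changes were those of HNRNPA1, a splicing regulator, at 1300 ± 25.6 against 769 ± 8.31 FPKM (log2 fold change 0.76), and CIRBP, a cold-inducible RNA-binding protein, at 190 ± 3.48 against 125.9 ± 6.04 FPKM (0.59). At equal sums the call of HNRNPA1 was lost (-0.15, limma adjusted p = 0.0649) and CIRBP was called lower. CPSF6, a subunit of the cleavage factor for alternative polyadenylation, was 48.4 ± 4.77 against 32.3 ± 0.949 FPKM (0.56), again lower at equal sums. FAM98A fell by 0.59 on the log2 scale, from 24.8 ± 1.64 to 16.2 ± 0.563 FPKM. HNRNPA1 has near-identical processed copies in the genome, and how reads were shared among them is not given in the sources used here.

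RNase P, which makes the 3′ end of NEAT1 and MALAT1, is an RNA with several protein subunits. Of 13 tested genes for RNase P protein subunits and RNase Z, 5 were called lower, 1 higher and 7 neither, with a median log2 fold change of -0.16. The count called lower is near the share of all tested genes, 35.9%. At equal sums all 13 were lower. RPP25 was the 1 called higher as deposited, at 10.7 ± 0.577 against 6.85 ± 0.463 FPKM (log2 fold change 0.58), and it too was lower at equal sums. POP5, POP4 and RPP30, all protein subunits of RNase P, fell by 0.40, 0.30 and 0.28 on the log2 scale. The call of POP5 was lost after quantile normalization and without control library 3 (limma adjusted p = 0.071 and 0.0645), where the list had 2 and 3 genes called lower.

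MALAT1 gave no measurement. It is one of the most abundant nuclear RNAs in most human cells, its mature 3′ end is also cut by RNase P, and its row (chr11:65497688-65506516, plus strand) was listed at 0 FPKM in all 6 libraries. Of all genes, 6282 (23.8%) were listed at 0 throughout, and 672 of the 2201 annotated long noncoding RNAs were among them. Whether MALAT1 was absent from these libraries or was lost in the estimation was not tested. NEAT1 ends 52.1 kb before the start of MALAT1 and was read in all 6 libraries. The planned ratio of NEAT1 to MALAT1 could not be formed.

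Of 32 tested genes for nuclear speckle proteins, the neighbours of MALAT1 in the nucleus, 11 were called higher, 5 lower and 16 neither. Shares of all tested genes were 30.5% higher and 35.9% lower. The median log2 fold change of the speckle genes was 0.067. At equal sums 0 of them were higher and 32 lower. The called genes with the largest changes were LUC7L3, a U1-associated splicing factor, at 157 ± 3.64 against 99.6 ± 1.60 FPKM (log2 fold change 0.65), CCNL2 (0.63), SRSF5 (0.51) and SRRM2, the large scaffold protein of speckles, at 102.1 ± 4.71 against 80.1 ± 1.74 FPKM (0.35), and all 4 were lower at equal sums.

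MIAT showed the largest change among the members. MIAT, also called Gomafu, is a nuclear RNA of neurons that binds splicing factors, and lies at chr22:26646428-26676475 on the plus strand. Its level was 23.1, 23.4 and 21.8 FPKM in the knockdown and 6.04, 5.68 and 6.03 FPKM in the control. The lowest knockdown library was far above the highest control library. The log2 fold change was 1.78 (SE 0.055, limma adjusted p = 1.70e-08, exact permutation p = 0.1). Its place among annotated long noncoding RNAs moved from 121 to 35. MIATNB, which overlaps MIAT on the same strand, was called higher by 0.25 log2 units as deposited, not called when any 1 of 4 libraries was left out (adjusted p 0.065 to 0.111 in limma) and lower at equal sums, and reads of the overlap cannot be assigned to one of the 2.

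The tested genes whose pattern over the 6 libraries was most like that of MIAT were CHRNB2 and MYC. Likeness was the Euclidean distance between log2(FPKM + 1) values centred on each gene's mean, which a shared difference between the groups dominates. CHRNB2, a subunit of the nicotinic acetylcholine receptor, was at a distance of 0.047, with 17.5 ± 0.709 FPKM against 4.39 ± 0.038 FPKM in the control. MYC, a transcription factor, was at 0.110, with 48.96 ± 0.645 against 14.2 ± 0.868 FPKM.

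TUG1 did not pass the test. TUG1 lies at chr22:30969245-30979395 on the plus strand, and its transcript is spread between nucleus and cytoplasm. Its level was 58.8, 53.1 and 56.5 FPKM in the knockdown and 56.8, 57.4 and 52.6 FPKM in the control. Both groups spanned nearly the same range. The log2 fold change was 0.01 (SE 0.053, 95% interval -0.11 to 0.14, limma adjusted p = 0.833, exact permutation p = 0.8). This value turned with the scale of the columns, to 0.29 after quantile normalization and -0.87 at equal sums, and it held place 17 among annotated long noncoding RNAs in both groups.

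GAS5 was the most abundant member in the knockdown. GAS5 lies at chr1:173863900-173868882 on the minus strand (ENSG00000234741.7) and hosts 11 small nucleolar RNAs in its introns in the RefSeq annotation. Its spliced RNA is known to open with a pyrimidine tract that couples it to translation and decay. The level was 417.1, 393.8 and 412.7 FPKM in the knockdown and 193.9, 202.8 and 190.01 FPKM in the control. The lowest knockdown library lay far above the highest control library. The log2 fold change was 1.06 (SE 0.040, limma adjusted p = 6.40e-08, exact permutation p = 0.1). In the control NEAT1 stood above GAS5, and in the knockdown GAS5 stood above NEAT1: GAS5 was 0.840, 0.871 and 0.856 of the NEAT1 level in the control libraries and 2.73, 2.57 and 2.67 times it in the knockdown libraries. This ratio within a library does not depend on the scale of the columns, and it shows unequal change only. The 10 small nucleolar RNAs of GAS5 that had a row were listed at 0 in all libraries, so host and passengers could not be compared.

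The opening bases of GAS5 and of hosts that share its start are shown because they hold the pyrimidine run by which such genes are known. Each line gives the first 25 bases of an annotated transcript on GRCh38 in the direction of transcription, with the opening run of C and T in capitals.
GAS5-210, chr1:173867965-173867989, minus strand: CTTTTCgaggtaggagtcgactcct
SNHG16-205, chr17:76557769-76557793, plus strand: CTTTTCgaggtcggccgcgtggctg
SNHG19-201, chr16:2155334-2155358, minus strand: CTTTTCggggtcgagtccgaggggg
SNHG5-207, chr6:85678709-85678733, minus strand: CTTTTacgtcggccttcgcgagcgt
A start with C followed by at least 3 further C or T was annotated for 6 of 29 GAS5 transcripts. At least 1 transcript of 18 of 29 hosts had it. Among tested genes, 15 of 25 hosts had it, beside 25.6% of the 12626 matched to a transcript. A gene with more annotated transcripts has more starts that can match, and the shares were not adjusted for this. Of the 15 tested hosts with such a start 11 were called higher and 0 lower, and of the 10 without it 7 were called higher. The difference was not tested.

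Hosts of small nucleolar RNAs were called higher more often than lower. Of 25 tested genes on the list, GAS5 among them, 18 were called higher, 2 lower and 5 neither. Shares of all tested long noncoding RNAs were 45.9% higher and 14.6% lower. The median log2 fold change of the hosts was 0.44 beside 0.26 for all tested long noncoding RNAs, and at equal sums 2 hosts were higher and 20 lower. The list also holds TAF1D and CWF19L1, which code for proteins, and SCARNA17, a small Cajal body RNA. EPB41L4A-AS1 was 19.8 ± 1.19 against 8.63 ± 0.442 FPKM (log2 fold change 1.11). SNHG20 was 11.1 ± 1.30 against 5.60 ± 0.692 FPKM (0.88). SNHG8 was 747 ± 18.7 against 411 ± 16.3 FPKM (0.86). At equal sums neither was called, with log2 fold changes of 0.080 for SNHG20 and -0.041 for SNHG8 (limma adjusted p = 0.515 and 0.558). SNHG9 went the other way, at 43.9 ± 4.21 against 62.8 ± 6.19 FPKM, a log2 fold change of -0.51. SNHG5, whose start is printed above, had a log2 fold change of 0.04 and was not called.

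**Figure D4:**
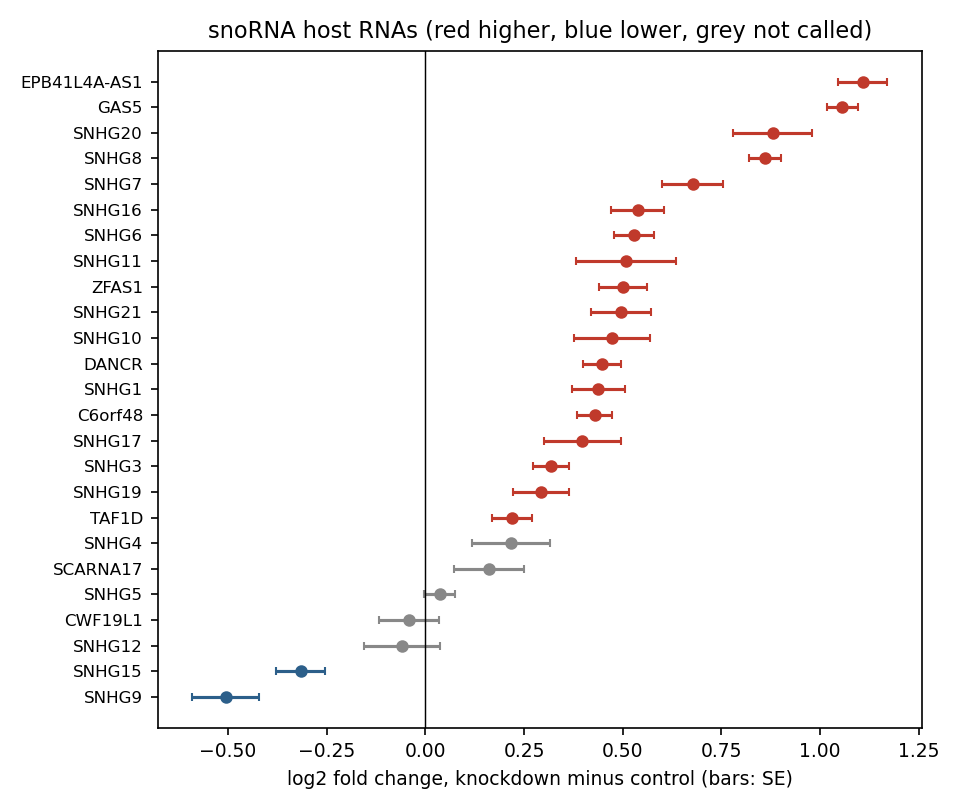
Log2 fold change (knockdown minus control) of the 25 tested hosts of small nucleolar RNAs, with SE bars, red where called higher, blue where called lower and grey where not called. GAS5 is the second from the top at 1.06, and SNHG9 and SNHG15 at the bottom are the 2 called lower.

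The tested genes nearest to GAS5 in pattern were FOXN3 and CELF5. FOXN3, a forkhead transcription factor, was at a distance of 0.060, with 44.1 ± 1.33 FPKM against 21.2 ± 0.632 FPKM in the control. CELF5, an RNA-binding protein of neurons, was at 0.079, with 4.84 ± 0.188 against 1.91 ± 0.087 FPKM. GAS5 overlaps 2 genes on the opposite strand, and both were called higher as deposited: ZBTB37 at 17.9 ± 1.45 against 10.1 ± 0.262 FPKM (log2 fold change 0.76, limma adjusted p = 1.25e-05) and GAS5-AS1 at 24.0 ± 3.97 against 15.4 ± 2.12 FPKM (0.60, adjusted p = 0.00272). At equal sums neither was called, with log2 fold changes of -0.080 and -0.25 (limma adjusted p = 0.444 and 0.0648). The kit keeps strand. Its use in counting is not given in the sources used here, and reads of GAS5 and of these 2 genes cannot be told apart.

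KCNQ1OT1 was higher in the knockdown at the lowest level of the 5. KCNQ1OT1 runs antisense through an intron of KCNQ1 at chr11:2608328-2699994 on the minus strand, is expressed from the paternal copy, and silences neighbouring genes on that copy. Its level was 7.04, 6.79 and 6.98 FPKM in the knockdown and 3.57, 3.58 and 3.41 FPKM in the control. The groups were tight and apart. The log2 fold change was 0.81 (SE 0.061, limma adjusted p = 5.12e-06, exact permutation p = 0.1), and it was 0.062 with an adjusted p of 0.475 at equal sums. Its place among annotated long noncoding RNAs moved from 202 to 129. The order of the 5 members by level was NEAT1, GAS5, TUG1, MIAT and KCNQ1OT1 in the control and GAS5, NEAT1, TUG1, MIAT and KCNQ1OT1 in the knockdown, and in neither group did the libraries of neighbours in that order overlap.

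The genes around KCNQ1OT1 did not move together. CDKN1C, a cell cycle inhibitor expressed from the maternal copy, was 9.57, 9.53 and 7.94 FPKM in the knockdown and 4.03, 4.68 and 3.59 FPKM in the control, a log2 fold change of 0.98. PHLDA2, a maternally expressed growth regulator of the placenta, was 0.258, 0.163 and 0.096 FPKM against 12.03, 8.66 and 12.7 FPKM, a log2 fold change of -3.36. KCNQ1, the potassium channel gene that KCNQ1OT1 overlaps on the opposite strand, was 1.85, 2.36 and 2.22 FPKM against 1.08, 1.19 and 1.11 FPKM (0.56). CDKN1C and KCNQ1 were thus higher with the noncoding RNA and PHLDA2 was lower, each without overlap of the groups. Since counting by strand is not stated, part of the KCNQ1 value may be reads of KCNQ1OT1 and the reverse. At equal sums the values of CDKN1C and KCNQ1 were 0.20 and 0.016 and neither was called.

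H19 gave no measurement. H19 (chr11:1995176-2001470, minus strand) is expressed from the maternal copy in fetal tissue, shares enhancers with the paternally expressed growth factor gene IGF2, and was listed at 0 in all 6 libraries. IGF2 was 2.91, 3.39 and 3.10 FPKM in the knockdown and 7.99, 8.12 and 7.92 FPKM in the control, a log2 fold change of -1.13. All knockdown libraries were below all control libraries. The planned ratio of H19 to IGF2 could not be formed. Over the list for the 11p15.5 imprinted region, which holds H19, IGF2, KCNQ1OT1 and their neighbours, 11 of 21 genes were tested and 6 were listed at 0 throughout. Of those tested 4 were called higher, 5 lower and 2 neither, beside 30.5% higher and 35.9% lower of all tested genes. The median of the region was -0.11, which was 0.14 after quantile normalization, and at equal sums 0 of its genes were higher and 8 lower. The count called lower was 3 with the replicate block, without the trend, without knockdown library 3 and without each control library in turn.

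MEG3 was listed at 0 in 4 libraries, with 0.0065 and 0.030 FPKM in control libraries 2 and 3. MEG3 (chr14:100779410-100861031, plus strand) is expressed from the maternal copy, and its partners DLK1 and RTL1 from the paternal one. DLK1, a membrane protein of the Notch family of ligands, was 1.66, 1.92 and 2.08 FPKM in the knockdown and 7.48, 5.74 and 6.16 FPKM in the control, a log2 fold change of -1.36. RTL1, a gene derived from a retrotransposon, was 1.13, 1.82 and 1.31 FPKM against 17.8, 17.8 and 18.3 FPKM, a log2 fold change of -2.98. Both paternally expressed genes were lower in every knockdown library than in any control library. They were the 2 tested genes of 7 on the list for 14q32. DIO3, at the far end of the cluster, was under the limit for testing, at 0.139, 0 and 0.103 FPKM against 1.16, 0.975 and 1.15 FPKM. The maternally expressed RNAs MEG8 and MEG9 were at 0.135 and 0.059 FPKM on average in the knockdown and at 0.085 and 0.481 in the control. Within 250 kb of MEG3, all 93 rows for microRNAs and small nucleolar RNAs were listed at 0, and the part of poly(A) selection or of failed estimates in these zeros was not tested. The planned ratio of MEG3 to DLK1 could not be formed.

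Over the wider list of imprinted genes 33 of 50 were tested, of which 12 were called higher, 14 lower and 7 neither. Shares of all tested genes were 30.5% higher and 35.9% lower. The median log2 fold change of the list was -0.12, which was 0.047 after quantile normalization and -0.23 at a minimum mean of 5 FPKM. At equal sums 0 of its genes were higher and 24 lower. Beside PHLDA2 and RTL1 the largest changes were those of DIRAS3, a small GTPase with growth-suppressing activity, at 0.150 ± 0.060 against 5.48 ± 0.713 FPKM (log2 fold change -2.49), and MEST, at 6.42 ± 1.53 against 18.3 ± 0.551 FPKM (log2 fold change -1.40). CDKN1C ran against these.

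The genes next to the members on the chromosome were counted within 250 kb of the ends of each. Over the 8 loci 52 neighbours were tested, each counted once, and 10 were called higher and 26 lower. The 52 and the 26 hold NEAT1, itself a member, as a neighbour of MALAT1. Of all tested genes, 30.5% were called higher and 35.9% lower. The neighbour counts were made as deposited only and were not tested against these shares. Around NEAT1 none of 15 was called higher as deposited, 9 were lower and 6 were neither, with a median of -0.23. EHBP1L1 was 7.60 ± 0.181 against 16.1 ± 0.170 FPKM (log2 fold change -0.99) and CDC42EP2, an effector of the GTPase CDC42, fell by 0.75. MALAT1 shares 14 of its 17 tested neighbours with NEAT1, which is itself another of the 17. Of the 17, 9 were lower and 1 higher, RNASEH2C, a subunit of the ribonuclease that removes RNA from RNA and DNA hybrids, at 0.33 as deposited and -0.51 at equal sums. Of 7 neighbours of GAS5 4 were higher and 2 lower, with ZBTB37 and GAS5-AS1 closest. Of 7 neighbours of TUG1 none was higher and 4 were lower. LIMK2, a kinase that acts on the actin cytoskeleton, fell by 1.45, from 21.4 ± 1.35 to 7.24 ± 0.845 FPKM, and SMTN, a smooth muscle protein, fell by 0.77. MORC2, whose start lies 0.947 kb from that of TUG1, was 12.6 ± 0.725 against 15.9 ± 0.730 FPKM (log2 fold change -0.31), beside a TUG1 level that was not called. Of 7 neighbours of KCNQ1OT1 3 were higher and 3 lower. Of 6 neighbours of MIAT 2 were higher and 2 lower, TPST2 at 4.03 ± 0.530 against 7.47 ± 0.389 FPKM (log2 fold change -0.76) and SRRD with a log2 fold change of -0.31. The call of SRRD was lost after quantile normalization and without knockdown library 3 or control library 2 (limma adjusted p = 0.10, 0.073 and 0.079). Around H19, IGF2 and CTSD, a lysosomal protease (log2 fold change -0.49), were lower among 3 tested, and around MEG3 3 of 4 were lower.

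**Figure D5:**
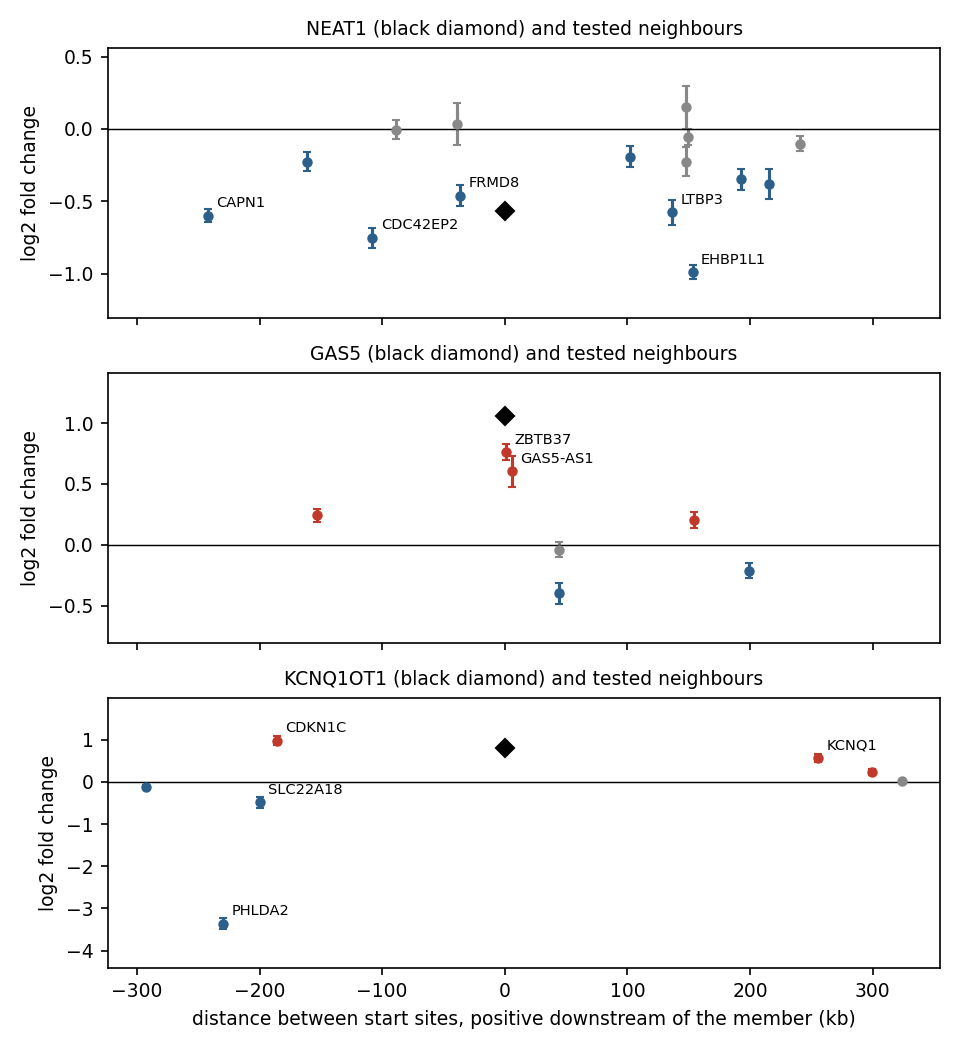
Log2 fold change (knockdown minus control, with SE bars) of tested neighbours of NEAT1, GAS5 and KCNQ1OT1 by distance between start sites in kb, positive downstream in the member's direction of transcription, with the member as a black diamond, red for called higher, blue for lower and grey for not called. The called neighbours of NEAT1 all lie below 0, ZBTB37 and GAS5-AS1 lie beside GAS5, and PHLDA2 at -3.36 lies far below CDKN1C at 0.98 near KCNQ1OT1.

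Other named long noncoding RNAs gave a mixed picture. Of 22 tested on a list of 34 in the table, 8 were called higher, 6 lower and 8 neither. Shares of all tested long noncoding RNAs were 45.9% higher and 14.6% lower. The median log2 fold change of the list was 0.16, and at equal sums 2 on it were higher and 17 lower. The largest changes were mostly falls. LINC00473 was 0.080 ± 0.105 against 7.94 ± 0.675 FPKM (log2 fold change -3.05), LINC-PINT, an RNA that p53 induces, was 0.815 ± 0.228 against 7.01 ± 0.310 FPKM (log2 fold change -2.15), and MIR22HG, the host of a microRNA, was 1.65 ± 0.646 against 8.21 ± 0.741 FPKM (log2 fold change -1.82). MIR124-2HG, a host of the neuronal microRNA miR-124, was higher at 2.00 ± 0.175 against 0.281 ± 0.224 FPKM (1.24). The change of MIAT lay between these in size.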

How the data were processed

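The authors deposited 1 table of FPKM values per gene, with a column for each of the 6 libraries, and the titles gave the groups. Per the labels' protocols the RNA was poly(A)-selected and the kit directional. TopHat2 2.1.0 and Cuffdiff 2.2.1, with SAMtools and the build hg38, are named in the submitters' processing notes. The settings, gene annotation and use of strand were not given in the sources used here. Fragment counts are unknown, so relative depth was estimated from ratios between libraries of values below 0.3 FPKM, where the same small fragment numbers recur, and no counting interval is given.

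Knockdown and control were compared with limma 3.58.1 (R 4.3.3, intensity trend, two-sided) on log2(FPKM + 1), which understates changes of low genes, over genes with a mean of at least 1 FPKM. Errors are SD of FPKM or SE of log2 fold changes, which are knockdown minus control. The fit was checked on simulated data. Coordinates, transcripts, neighbours and long noncoding RNA classes are from GENCODE release 29 (GRCh38), the small nucleolar RNAs of GAS5 from RefSeq.

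The members and lists were chosen with earlier results of these data known. Named genes are TARDBP, the members, their ratio partners, SNORD3A and RN7SK, up to 4 called genes of largest change per list, 2 nearest profiles per member changed by at least 1 log2 unit, and up to 2 called neighbours of largest change per member. For the marker lists only TH is named. TH, SNHG5, SNHG9, SNHG15, SNHG16, SNHG19, MORC2, ZBTB37, GAS5-AS1, TAF1D, CWF19L1, SCARNA17, DIO3, MEG8 and MEG9 were named after their values were seen. KCNQ1, MIATNB and RNASEH2C, neighbours of members, are named outside these rules.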

Additional observations from a re-analysis of the deposited data

How the results depend on the processing

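GAS5 and MIAT were called higher and NEAT1 lower under all 19 alternatives, with log2 fold changes of 0.16 to 1.19, 0.96 to 1.93 and -1.47 to -0.32. Rescaling the columns to equal sums ended the call of KCNQ1OT1 (0.062) and made the members called lower 2, with TUG1 at -0.87. TUG1 was called higher at 0.29 after quantile normalization (adjusted p = 7.99e-04), was -0.017 at equal sums without the 6 small RNAs, and ran from -0.026 to 0.052 when 1 library was left out, negative without knockdown library 1 and without control library 3. Also at equal sums, values turned, though not past the threshold for HNRNPA1, SNHG8, GAS5-AS1 and ZBTB37, to -0.15 for HNRNPA1, -0.31 for CIRBP, -0.32 for CPSF6, -0.25 for LUC7L3, -0.26 for CCNL2, -0.38 for SRSF5, -0.55 for SRRM2, -0.23 for RPP25, -0.041 for SNHG8, -0.25 for GAS5-AS1, -0.080 for ZBTB37, -0.51 for RNASEH2C and -0.29 for MIATNB. Calls of POP5 (after quantile normalization and without control library 3), SRRD (after quantile normalization and without knockdown library 3 or control library 2) and SNHG20 (at equal sums, 0.080) were lost. The cause was not tested.

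At equal sums mesenchymal markers called higher went from 4 to 2, reference genes called higher from 2 to 0, and noradrenergic markers from 24 higher and 7 lower to 13 and 17. The counts of the other lists at equal sums stand beside their results, and further counts that moved by over 1.5 times were these. After quantile normalization paraspeckle genes called higher went from 15 to 27, speckle genes from 11 higher and 5 lower to 28 and 0, lower RNase P genes from 5 to 2, lower 11p15.5 genes from 5 to 3 and other named long noncoding RNAs called higher from 8 to 13. With a minimum of 5 FPKM, higher and lower annotated long noncoding RNAs went from 245 and 78 to 90 and 21, other named ones from 8 and 6 to 4 and 3, higher imprinted genes from 12 to 6, higher Schwann cell and glial markers from 3 to 1 and lower 14q32 genes from 2 to 1. With a minimum of 0.1 FPKM or none, lower long noncoding RNAs were 148 and 161 and lower 14q32 genes 4. Without control library 3 lower RNase P genes were 3, and lower 11p15.5 genes were 3 without the trend, without knockdown library 3 and without each control library.

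Same-numbered libraries did not deviate together (correlations of -0.0185, -0.185 and -0.0911). This cannot show whether the numbers mark libraries prepared as pairs, which the labels do not say. The replicate block gave 3894 genes higher and 4667 lower, changed no call of a member and left 3 lower genes at 11p15.5. No value could be given for MALAT1, H19, MEG3 or the ratios. With 3 libraries a group and FPKM alone, levels near 0 cannot be read.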
